A study of Mus musculus with 81 samples.

Results

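Endogenous T cells in peripheral blood were examined on day 7, in 5 mice given the full dose of mRBC-OVA-4-1BBL-IL-12 and 4 mice given mRBC-CTRL. All libraries labelled as day 7 (postblood) samples of those treatment groups were taken, which gave 9 of the 81 samples of the series. All mice were B6.SJL-Ptprc<a> Pepc<b>/BoyJ (CD45.1 Pep Boy) animals bearing subcutaneous EG7.OVA tumors, an EL4-derived lymphoma that expresses ovalbumin, and their age was not given in the sources used here. Every mouse, controls included, received 1e6 naive OT-1 cells, a transgenic CD8 T cell population specific for an ovalbumin peptide on H-2Kb. On days 0 and 3 the full-dose mice received 1e9 mouse red blood cells carrying that peptide on H-2Kb, 4-1BBL and IL-12, and the control mice received 1e9 mRBC-CTRL. Red cell carriers were given intravenously, tumors averaged about 175 mm3 at randomization, and genomic DNA came from 50 to 60 uL of blood. The samples of the series include no day 7 blood library of control mouse 1 and no day 0 blood library of full-dose mouse 1.

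Each T cell carries a T cell receptor beta chain whose gene was assembled from V, D and J segments, with nucleotides trimmed and added at the joins. The join encodes CDR3, the loop that contacts the peptide, so a rearrangement acts as a tag that daughter cells inherit when a T cell divides. A naive repertoire holds a very large number of different tags with few copies each, and a T cell response shows as a small number of tags that take up a large share.

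The unit of measurement was the template, the number of genomic copies of a rearrangement estimated by the immunoSEQ assay. Endogenous templates were defined as in-frame templates without the OT-1 CDR3 (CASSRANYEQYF, encoded by TCRBV12-01 and TCRBJ02-07). They may include transferred T cells without the OT-1 receptor, which these data cannot tell from T cells of the recipient. The control libraries held 5877, 6235, 10699 and 5002 endogenous templates in mice 2 to 5. The full-dose libraries held 4480, 1595, 5944, 6579 and 482 in mice 1 to 5, so full-dose mouse 5 stood apart as a shallow library and results are also given without it. The OT-1 CDR3 was in all 9 libraries, with 130 to 482 templates in controls and 1873 to 8645 at the full dose. Out-of-frame and stop-containing templates numbered 46.2 to 52.5 per 100 endogenous templates in controls and 44.0 to 55.6 at the full dose, so the ranges overlapped. Rearrangements within 2 mismatches of OT-1 held at most 1 template per library. The CDR3 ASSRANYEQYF, which is that of OT-1 without its first cysteine, was kept among endogenous templates by the rule, with 1, 1, 2, 1 and 1 templates in full-dose mice 1 to 5 and 0 in each control. The OT-1 pair of V and J segments held 10 to 164 endogenous templates. Between 0 and 20 endogenous rearrangements were shared by any 2 of the 9 libraries. Blood data of this kind give shares, so more cells of one clone and fewer of the other cells cannot be told apart.

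The largest endogenous rearrangement of each library is printed to show which clones led each repertoire and how the join differed from mouse to mouse. Capitals mark the bases from the first codon of CDR3 to the end of the 87-base read, which stops one codon short of the closing phenylalanine. CDR3s of 15 or more residues, and that of control mouse 2, are named by segment and length.
Full-dose mouse 1, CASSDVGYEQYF, TCRBV13-03 and TCRBJ02-07: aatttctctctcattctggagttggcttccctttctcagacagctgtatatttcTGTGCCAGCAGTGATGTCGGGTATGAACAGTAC
Full-dose mouse 2, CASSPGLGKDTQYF, TCRBV04-01 and TCRBJ02-05: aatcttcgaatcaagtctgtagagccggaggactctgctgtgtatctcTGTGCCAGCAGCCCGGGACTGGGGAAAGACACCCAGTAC
Full-dose mouse 3, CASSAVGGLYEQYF, TCRBV04-01 and TCRBJ02-07: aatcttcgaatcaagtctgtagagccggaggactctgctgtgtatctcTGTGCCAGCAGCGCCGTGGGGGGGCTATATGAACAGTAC
Full-dose mouse 4, 15-residue CDR3, TCRBV13-03 and TCRBJ02-04: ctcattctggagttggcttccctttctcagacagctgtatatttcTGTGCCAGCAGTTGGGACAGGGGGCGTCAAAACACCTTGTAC
Full-dose mouse 5, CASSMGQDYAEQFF, TCRBV19-01 and TCRBJ02-01: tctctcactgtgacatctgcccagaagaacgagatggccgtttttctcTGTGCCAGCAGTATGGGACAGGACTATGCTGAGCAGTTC
Control mouse 2, 14-residue CDR3, TCRBV15-01 and TCRBJ02-01: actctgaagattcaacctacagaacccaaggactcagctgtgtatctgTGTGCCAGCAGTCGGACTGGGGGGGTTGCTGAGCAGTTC
Control mouse 3, 15-residue CDR3, TCRBV04-01 and TCRBJ01-04: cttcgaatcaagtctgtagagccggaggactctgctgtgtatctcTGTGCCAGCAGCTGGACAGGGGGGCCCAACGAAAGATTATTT
Control mouse 4, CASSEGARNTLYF, TCRBV05-01 and TCRBJ02-04: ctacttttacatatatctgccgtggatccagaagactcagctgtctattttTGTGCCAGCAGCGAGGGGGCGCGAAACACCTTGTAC
Control mouse 5, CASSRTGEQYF, TCRBV14-01 and TCRBJ02-07: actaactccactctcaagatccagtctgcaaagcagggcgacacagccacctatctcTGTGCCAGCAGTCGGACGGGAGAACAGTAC

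These 9 rearrangements were all different and used 6 V segments. In the full-dose mice the largest clone held 83 of 4480 templates in mouse 1, 97 of 1595 in mouse 2, 274 of 5944 in mouse 3, 305 of 6579 in mouse 4 and 66 of 482 in mouse 5. These were shares of 1.85%, 6.08%, 4.61%, 4.64% and 13.7% of endogenous templates. In the controls the largest clone held 50, 54, 147 and 82 templates in mice 2 to 5, or 0.851%, 0.866%, 1.37% and 1.64%. Each full-dose value lay above each control value, and the closest were full-dose mouse 1 (95% Wilson interval 1.5% to 2.29%) and control mouse 5 (1.32% to 2.03%), whose intervals overlapped. Intervals here cover counting error only. The mean share was 6.17% ± 4.47 (SD, n = 5) against 1.18% ± 0.390 (SD, n = 4), with p = 0.0159 in a 2-sided exact permutation test over the 126 divisions of the 9 mice.

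The endogenous blood repertoire was more clonal on day 7 at the full dose than in controls. The 10 largest rearrangements held 7.70% to 23.2% of endogenous templates in each treated mouse, against 2.87% to 5.18% in each control. The number of different rearrangements at equal sampling depth was lower. No V segment, J segment or CDR3 length class passed the test, and the largest clones differed from mouse to mouse.

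Clonality, 1 minus the normalised Shannon entropy, runs from 0 for equal clone sizes to 1 for a single clone. Because libraries differed in depth, it was computed as the value expected for 482 templates drawn from each library, the size of the smallest. At that depth it was 0.00361, 0.00391, 0.00372 and 0.00769 in control mice 2 to 5. It was 0.0133, 0.0551, 0.0547, 0.0411 and 0.0890 in full-dose mice 1 to 5. The groups did not overlap, and full-dose mouse 1 was the closest to the controls. The means were 0.0507 ± 0.0274 (SD, n = 5) and 0.00473 ± 0.00197 (SD, n = 4) (exact permutation test, 2-sided p = 0.0159, adjusted p = 0.0238 over 6 measures). How many times the control value this was depended on depth. On all templates the means were 0.0818 and 0.0192, and without full-dose mouse 5 they were 0.0541 and 0.00758 at 1000 templates and 0.0627 and 0.00994 at 1595.

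Richness at 482 templates, the expected number of different rearrangements, was 462, 461, 468 and 452 in the controls. It was 431, 365, 360, 390 and 285 at the full dose, a lower value in every mouse (366 ± 53.3 against 460.4 ± 6.58, exact permutation test, adjusted p = 0.0238). The share of those templates that came from rearrangements seen once was 92.4%, 92.2%, 95.1% and 89.8% in controls. At the full dose it was 83.5%, 66.6%, 67.9%, 75.0% and 41.1% (66.8% ± 15.9 against 92.4% ± 2.15, exact permutation test, adjusted p = 0.0238). The values of full-dose mouse 5, 285 and 41.1%, are those of its whole library of 482 templates, while the other libraries were drawn down. On all templates, with no drawing, the singleton share was 34.2% to 42.9% at the full dose and 46.7% to 51.9% in controls. The means were 39.0% ± 4.10 and 48.5% ± 2.40 (exact permutation test, adjusted p = 0.0317). Full-dose mice 3 and 4 were sequenced to about the depth of control mice 2 and 3. Their singleton shares at 482 templates were 67.9% and 75.0% against 92.4% and 92.2%.

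**Figure D1:**
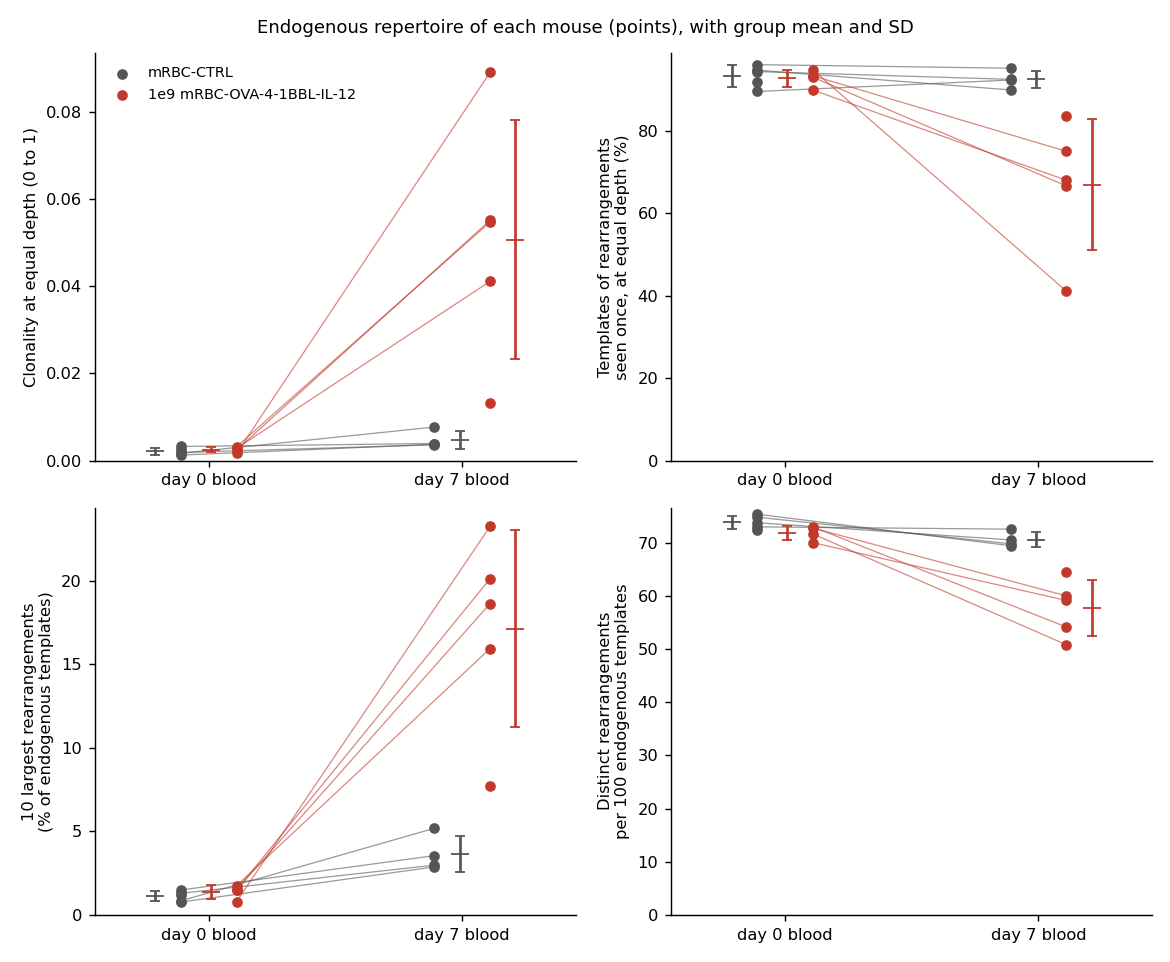
Measures of the endogenous repertoire on day 0 and day 7 (y axes: clonality, percent of templates, percent of templates, and rearrangements per 100 templates), with 1 point per mouse, lines joining the same mouse, and group mean with SD bars. The groups overlap on day 0, where the mean of rearrangements per 100 templates is lower in the later full-dose mice (71.8 against 73.9). They lie apart on day 7, where full-dose mouse 1, which has no day 0 point, is the nearest to the controls.

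The 10 largest endogenous rearrangements together made up 2.98%, 3.54%, 2.87% and 5.18% of endogenous templates in control mice 2 to 5. They made up 7.70%, 18.6%, 20.1%, 15.9% and 23.2% in full-dose mice 1 to 5. The mean was 17.1% ± 5.89 (SD, n = 5) against 3.64% ± 1.07 (SD, n = 4), 4.70 times as high (exact permutation test, adjusted p = 0.0238). Rearrangements that reached 1% of endogenous templates numbered 0, 0, 1 and 1 in the controls and 2, 5, 10, 4 and 6 at the full dose. With full-dose mouse 5 left out, the differences kept their direction at 0.0363 for clonality, −73.9 for richness, −19.1 percentage points for singletons and 11.9 percentage points for the 10 largest, each with adjusted p = 0.0429 (exact permutation test). With any 1 of control mice 2 to 5 left out, these differences kept their direction with no overlap, but the adjusted p of all 4 rose to 0.0536 (exact permutation test), past the threshold of 0.05.

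**Figure D2:**
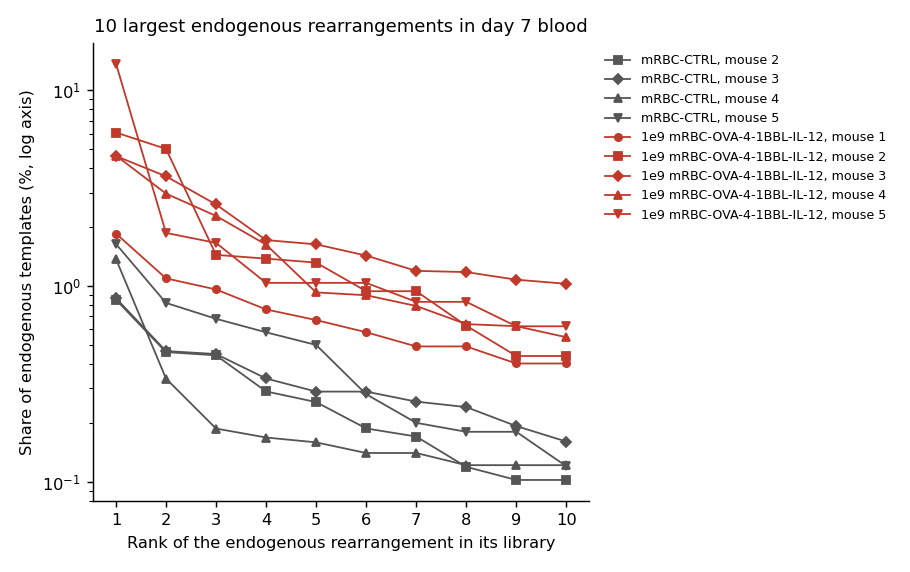
Share of endogenous templates (percent, log axis) against rank for the 10 largest endogenous rearrangements of each day 7 blood library, 1 line per mouse. At each rank every full-dose line lies above every control line, with full-dose mouse 1 and control mouse 5 the closest at the first rank (1.85% and 1.64%).

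Equal-depth values still moved with the size of the library they were drawn from. Among the 14 day 0 blood libraries, the singleton share at 482 templates was 89.5% in the smallest (2621 endogenous templates) and 98.1% in the largest (18519). The number of distinct rearrangements per 100 templates, with no drawing, was 73.8 and 71.7 in these same libraries and lay between 70.0 and 77.9 in all 14, so it was added as a measure after the data had been seen. On day 0 it was 72.7, 71.7, 73.0 and 70.0 in the later full-dose mice 2 to 5. The later control mice 1 to 5 had 72.5, 74.8, 73.8, 73.0 and 75.4. The mean was thus lower in the later full-dose mice before treatment, at 71.8 against 73.9. On day 7 the number was 69.8, 70.5, 72.5 and 69.4 in control mice 2 to 5. It was 64.4, 60.0, 50.8, 54.1 and 59.1 in full-dose mice 1 to 5, below every control (57.7 ± 5.31 against 70.6 ± 1.39, exact permutation test, p = 0.0159, not adjusted).

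On day 0, before treatment and just after OT-1 transfer, the repertoires of these mice were alike in their evenness. Clonality at 482 templates was 0.00240, 0.00316, 0.00279 and 0.00165 in the later full-dose mice 2 to 5, and 0.00186, 0.00323, 0.00126 and 0.00167 in the later control mice 2 to 5. It rose within the mouse by 0.0527, 0.0516, 0.0383 and 0.0874 at the full dose. The change in the controls was 0.00175, 0.000678, 0.00246 and 0.00602, smaller in each mouse (exact permutation test over the 8 mice with both samples, p = 0.0286, the smallest value that 4 against 4 can give). The share of the 10 largest rearrangements rose by 17.1, 18.6, 14.2 and 22.4 percentage points at the full dose. In the controls it rose by 1.69, 2.06, 2.10 and 4.34 percentage points, again with p = 0.0286 for the difference (exact permutation test).

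Mice of the lower-dose group, given 2.5e8 of the same cells on both days, had clonality values of 0.00798 to 0.0528 and a 10-largest share of 5.23% to 16.9% on day 7. These ranges overlapped those of the full dose, and none of the 6 measures passed the test between the doses (exact permutation tests over 5 mice a group, adjusted p from 0.214 to 0.690). Mean clonality was 0.0507 ± 0.0274 at the full dose and 0.0320 ± 0.0189 at the lower one.

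The largest clones in blood were also found in the tumor of the same mouse. Of the 90 rearrangements that made up the 10 largest of the 9 libraries, 84 occurred in the tumor library of the same mouse, 45 of 50 at the full dose and 39 of 40 in controls. For 51 of the 90, the rearrangement was among the 10 largest endogenous rearrangements of the tumor too. Tumor shares are of endogenous templates without the CDR3 of the EG7.OVA lymphoma (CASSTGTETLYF).

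Transfer of templates between libraries was checked with 3 measures. The EG7.OVA CDR3 held 30352 to 61149 templates in the control tumors and 95 to 1374 in the full-dose tumors, and had 0 templates in all 9 blood libraries. Only the tumors of these 9 mice were searched. The 10 largest blood clones of one mouse reached at most 10 templates in the tumor of another (clones of full-dose mouse 1 in the tumor of full-dose mouse 2, 1.20% of its endogenous templates). For the clones of each other mouse, the highest such count was 0 to 4 templates, or at most 0.103%. Over all rearrangements rather than the largest, blood templates found in any one other mouse's tumor reached 5.49% in full-dose mouse 1 and 6.75% in full-dose mouse 3, and 0.306% to 1.49% in the other 7 mice. In each of the 9 mice the share found in the own tumor was higher than that. How much of the overlap between blood and tumor came from such transfer was not tested.

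Together the 10 largest blood clones made up 49.1%, 40.0%, 33.2% and 44.5% of endogenous tumor templates in control mice 2 to 5. They made up 42.8%, 11.8%, 49.5%, 34.1% and 36.0% in full-dose mice 1 to 5. The groups overlapped, and the means of 34.8% ± 14.2 (SD, n = 5) and 41.7% ± 6.81 (SD, n = 4) differed by less than their spread (exact permutation test, p = 0.468, adjusted p = 0.546 over 7 tumor measures). The tumor share of these clones was 16.5, 11.3, 11.6 and 8.60 times their blood share in the controls, and 5.55, 0.633, 2.46, 2.14 and 1.55 times at the full dose. Since the clones were chosen by their blood share, that ratio is given without a test.

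The 10 largest endogenous clones of each tumor, chosen without the blood data, held 2.08%, 3.03%, 2.37% and 5.10% of endogenous blood templates in control mice 2 to 5. They held 6.85%, 12.7%, 18.1%, 10.9% and 19.1% in full-dose mice 1 to 5. No full-dose value fell among the control values (13.5% ± 5.09 against 3.14% ± 1.36, exact permutation test, p = 0.0159), but the p adjusted over the 7 tumor measures, 0.0556, missed the threshold of 0.05. All blood templates whose rearrangement was found in the own tumor came to 5.85%, 7.31%, 5.14% and 8.16% in controls. At the full dose they came to 16.0%, 20.9%, 31.6%, 25.5% and 32.0%, also with p = 0.0159 and adjusted p = 0.0556 (exact permutation test). Control tumor libraries were the deeper ones, with 11484 to 23605 endogenous templates against 832 to 4241.

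**Figure D3:**
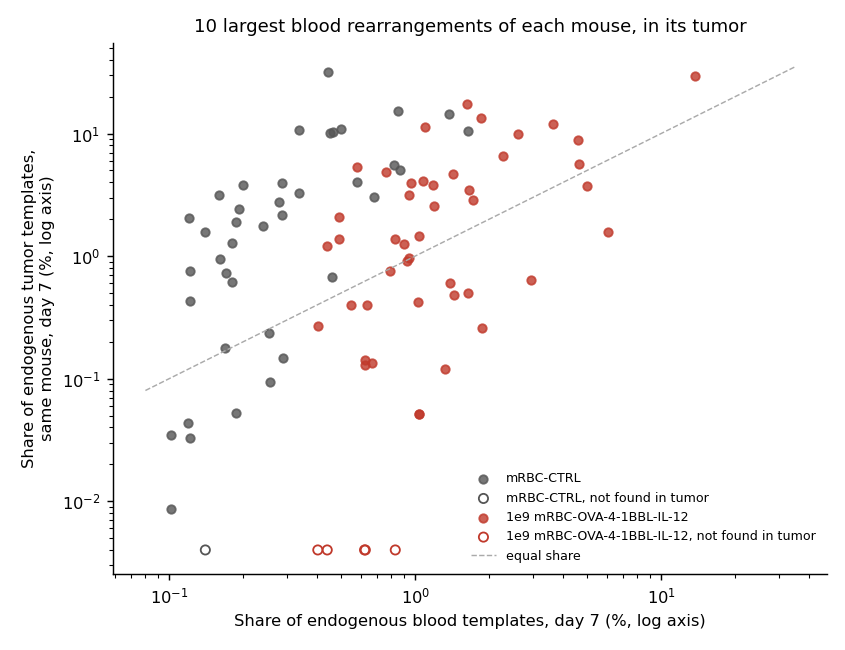
Share of endogenous tumor templates (y axis, percent, log) against share of endogenous blood templates (x axis, percent, log) on day 7, for the 10 largest blood rearrangements of each mouse. Open circles at the bottom edge were not found in the tumor, and the dashed line marks equal shares. Control clones sit to the left, at a median blood share of 0.248% and tumor share of 1.97%, and full-dose clones to the right, at 1.04% and 1.31%.

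With the rearrangements found in the own tumor taken out, the remaining blood templates held 72.3, 73.7, 75.1 and 73.5 distinct rearrangements per 100 templates in control mice 2 to 5. They held 73.4, 73.3, 71.6, 70.0 and 74.1 in full-dose mice 1 to 5, so the groups overlapped (72.5 ± 1.64 against 73.7 ± 1.17, exact permutation test, p = 0.286, adjusted p = 0.50). Abundant rearrangements are more likely than rare ones to be found in a second library. Between 33 and 138 rearrangements were taken out per mouse. Of the rest, the 10 largest held 0.601% to 0.831% in controls and 1.83%, 3.65%, 3.05%, 2.06% and 9.45% at the full dose, with no overlap (p = 0.0238, adjusted p = 0.0556, exact permutation test). Without 1 mouse at a time, the unadjusted p of that last measure ranged from 0.0286 to 0.0893. The tumor measures were added after the data had been seen.

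Single clones, chosen after their values were seen, showed the range. In full-dose mouse 5, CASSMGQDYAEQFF (TCRBV19-01, TCRBJ02-01) had 66 of 482 blood templates and 1131 of 3873 tumor templates, and was the first in rank in both. In full-dose mouse 4, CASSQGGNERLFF (TCRBV05-01, TCRBJ01-04) was the fourth in blood with 107 templates and the first in the tumor with 738 of 4241 templates. In control mouse 2, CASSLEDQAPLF (TCRBV16-01, TCRBJ01-05) had only 26 of 5877 blood templates, or 0.442%, and 3659 of 11484 tumor templates, or 31.9%. In full-dose mouse 2, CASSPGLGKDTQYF (TCRBV04-01, TCRBJ02-05) went the other way, with 97 of 1595 blood templates and 13 of 832 tumor templates.

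Most of the 10 largest clones were not found in the blood of the same mouse on day 0. Of the 80 rearrangements in mice with a day 0 library, 15 were found there, 7 of 40 at the full dose and 8 of 40 in controls. A rearrangement absent from a day 0 library could still have held up to 0.0411% to 0.114% of its templates, the share that 3 templates would have given. In each group, 2 of the clones found on day 0 already had the highest template count of their day 0 library. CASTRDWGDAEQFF (TCRBV19-01, TCRBJ02-01) of mouse 4 went from 39 of 4817 templates, 0.810%, to 195 of 6579, 2.96%. A 15-residue TCRBV02-01, TCRBJ02-07 clone of mouse 2 went from 21 of 4333 templates, 0.485%, to 80 of 1595, 5.02%. In control mouse 2, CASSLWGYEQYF (TCRBV04-01, TCRBJ02-07) was at 16 of 4954 templates on day 0 and 15 of 5877 on day 7. In control mouse 4, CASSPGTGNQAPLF (TCRBV17-01, TCRBJ01-05) was at 9 of 7304 templates, 0.123%, on day 0 and 18 of 10699, 0.168%, on day 7. The largest day 7 clone had 0, 0, 1 and 0 templates on day 0 in full-dose mice 2, 3, 4 and 5.

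No V segment passed the test. Of 24 V segments tested, edgeR called 0 (0%) at an adjusted p under 0.05, with 2 at an unadjusted p under 0.05. The OT-1 V segment, TCRBV12-01, held 6.12% ± 1.33 (SD, n = 5) of endogenous templates at the full dose and 5.24% ± 0.372 (SD, n = 4) in controls (log2 fold change 0.21, adjusted p = 0.447). The TCRBV12 family (Vb5) as a whole held 8.15% to 11.7% against 7.96% to 8.81%. The largest family, TCRBV13 (Vb8), held 16.2% to 24.3% against 21.5% to 24.2%. TCRBV19 (Vb6) held 8.77%, 5.20%, 9.34%, 10.6% and 20.5% in full-dose mice 1 to 5, against 6.24% to 8.66% in controls, and the 20.5% of mouse 5 includes the 13.7% of its largest clone. TCRBV29 (Vb7) held 2.51% to 5.80% against 3.11% to 3.64%, and TCRBV15 (Vb12) 2.33% to 3.71% against 3.04% to 4.24%.

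Of the 24 V segments tested, 2 had lower values in every full-dose mouse than in every control, without passing the edgeR test. TCRBV16-01 (Vb11), a segment that superantigens act on in some mouse strains, held 4.73%, 4.26%, 3.82%, 4.32% and 3.11% in full-dose mice 1 to 5. The control mice 2 to 5 had 6.40%, 5.21%, 5.16% and 5.80% (log2 fold change −0.44, adjusted p = 0.120). TCRBV31-01 held 3.01% to 5.04% at the full dose and 5.28% to 6.06% in controls (log2 fold change −0.48, adjusted p = 0.120). DESeq2 called 2 of the 24 V segments, TCRBV16-01 and TCRBV31-01, and the exact permutation test with the same adjustment called neither. TCRBV31-01 was named after its values were seen, as was TCRBJ02-03 among the J segments. TCRBV26 (Vb3), another segment that superantigens act on in some strains, was not called either and held 1.66% to 4.01% against 2.88% to 3.62%.

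**Figure D4:**
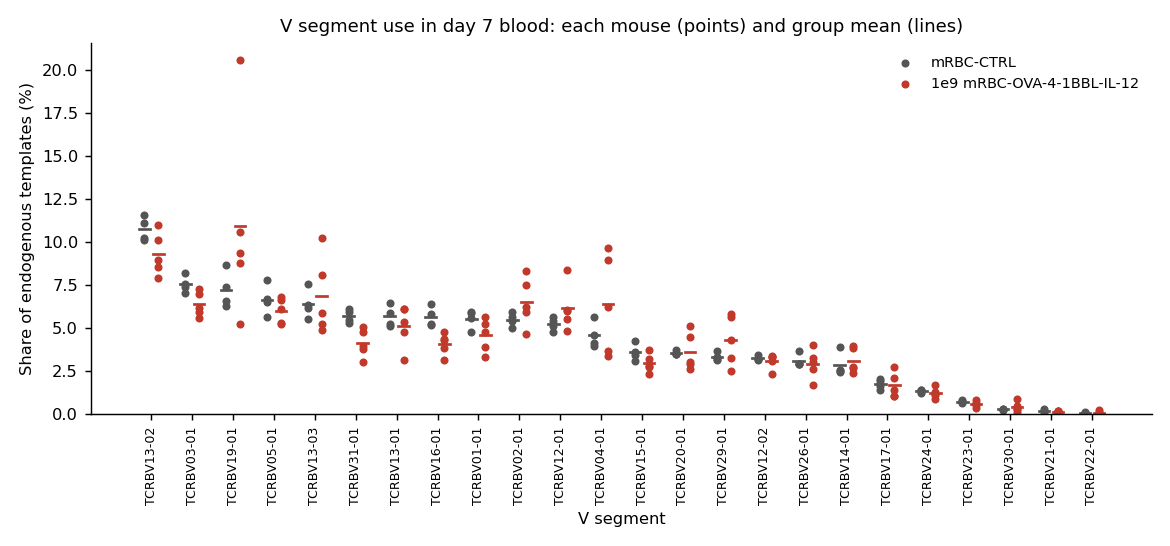
Share of endogenous templates (y axis, percent) for each of the 24 V segments (x axis, ordered by the control mean) in day 7 blood, with 1 point per mouse and a line at each group mean. Full-dose points are more scattered than control points, and TCRBV19-01 in mouse 5, at 20.5%, is the highest of all.

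Of 13 J segments tested, edgeR called 0 (0%), with 1 at an unadjusted p under 0.05, and DESeq2 called 0. These 13 include TCRBJ02, a family label without a segment number, with 26 templates. TCRBJ02-07, the J segment of OT-1, held 27.0% ± 2.65 of endogenous templates at the full dose and 27.2% ± 1.26 in controls (log2 fold change −0.01, adjusted p = 0.959). TCRBJ02-03 had the smallest p, with 7.52%, 4.26%, 5.35%, 5.52% and 3.73% in full-dose mice 1 to 5 and 7.12% to 7.91% in controls (adjusted p = 0.281). It was called when full-dose mouse 1, whose value lay among the controls, was left out. Among 248 V-J pairs, edgeR called 0 (0%), with 26 at an unadjusted p under 0.05, 12 of them higher at the full dose and 14 lower, and DESeq2 called 0.

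No difference in CDR3 length passed the test. The template-weighted mean was 13.79, 13.69, 13.84, 13.85 and 13.87 residues in full-dose mice 1 to 5, and 13.85, 13.82, 13.79 and 13.80 in control mice 2 to 5 (13.81 ± 0.0705 against 13.82 ± 0.0267, exact permutation test, p = 0.873). None of 12 length classes was called by edgeR (0%) or DESeq2, and none had an unadjusted p under 0.05. Length 14 was the most common in both groups, at 28.2% to 43.4% of templates at the full dose and 28.3% to 31.6% in controls, and its highest value belonged to mouse 5. The 90 largest rearrangements had CDR3s of 11 to 16 residues and used 17 V and 11 J segments.

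Rearrangements with no N insertions, the untemplated bases that terminal transferase adds at the joins, held 8.75%, 7.52%, 8.63% and 9.04% of endogenous templates in control mice 2 to 5. They held 9.46%, 8.34%, 8.48%, 8.62% and 20.7% in full-dose mice 1 to 5 (exact permutation test, p = 0.524, adjusted p = 0.629). The largest clone of mouse 5, at 13.7% of its templates, has no N insertion. Without the largest rearrangement of each library the full-dose range was 8.17% to 9.64% and the control range 7.59% to 9.19%.

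Of 93 CDR3 amino acid sequences found in at least 4 of the 9 libraries, edgeR called 1 (1.08%), with 9 at an unadjusted p under 0.05. It was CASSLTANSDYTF, with 22, 1, 30, 1 and 0 templates in full-dose mice 1 to 5 and 0, 2, 0 and 0 in control mice 2 to 5 (log2 fold change 4.59, adjusted p = 0.0165). That CDR3 met the minimum of 4 libraries in the full-dose group alone, where it was high, so the call is not independent of the filter. Full-dose mice 1 and 3 held 22 and 30 of the 56 templates, and neither DESeq2 nor the exact permutation test (p = 0.238, adjusted p = 0.953) made the call. It was also lost without full-dose mouse 3 and without control mouse 2, 4 or 5, when 0 CDR3s were called. With each distinct rearrangement counted once it was lost too, and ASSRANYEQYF was called higher in its place. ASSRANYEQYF, the OT-1 CDR3 without its first cysteine, was found in every full-dose library and in no control. It met the minimum of 4 libraries through that group alone, so its call is not a result about shared endogenous CDR3s. The called CDR3, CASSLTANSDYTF, was made by different rearrangements, some of which were found in more than 1 mouse. Over all blood and tumor libraries of the experiment it occurred in 18 libraries as 21 rearrangements with 12 V segments and always TCRBJ01-02, at up to 7 templates in 1 of 7 day 0 libraries. Of these, 3 rearrangements with 3 different V segments reached 10 or more templates in a library. They are printed to show that they share the CDR3 amino acids and TCRBJ01-02 but differ in V segment and in bases of CDR3.
Full-dose mouse 1, TCRBV15-01: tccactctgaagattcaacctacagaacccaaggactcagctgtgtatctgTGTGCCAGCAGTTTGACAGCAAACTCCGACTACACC
Full-dose mouse 3, TCRBV14-01: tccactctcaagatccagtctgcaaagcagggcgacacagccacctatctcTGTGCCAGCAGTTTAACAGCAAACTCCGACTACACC
Lower-dose mouse 4, TCRBV03-01: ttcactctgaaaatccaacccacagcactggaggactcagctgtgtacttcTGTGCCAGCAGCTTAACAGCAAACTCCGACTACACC

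The TCRBV15-01 form had 22 of 4480 blood templates and 62 of 2974 tumor templates in full-dose mouse 1, and 1 of 832 in the tumor of full-dose mouse 2. The TCRBV14-01 form had 28 of 5944 blood templates in full-dose mouse 3 and 1 of 4037 in its tumor. It also had 2 of 6295 templates in the day 0 blood of full-dose mouse 5. The TCRBV03-01 form came from mouse 4 of the lower dose, with 3 of 2939 blood templates and 32 of 2589 tumor templates. No CDR3 was among the 10 largest of more than 1 of the 9 libraries.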

How the data were processed

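Genomic DNA from blood was sequenced by the authors on the immunoSEQ platform, which amplifies the CDR3 of the mouse TCR beta chain in a bias-controlled multiplex PCR. The deposited files list each rearrangement with its template count, CDR3, V and J names and insertion lengths, per the file headers. A deposited frequency column, a fraction of templates despite its percent heading, was not used. Version numbers of the upstream software and the genome build were not given in the sources used here. Libraries were grouped by the labels, and mice were treated as separate animals.

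In-frame rows without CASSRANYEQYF were kept. Clonality, richness and singleton share were the values expected for 482 templates drawn without replacement. Single values were compared with 2-sided exact permutation tests over the 126 divisions of 9 mice, with Benjamini-Hochberg adjustment over 6 measures and a threshold of 0.05. The smallest p these divisions can give was 0.00794. Counts of V and J segments and length classes (at least 10 templates), V-J pairs (at least 20 templates in 4 libraries) and CDR3s found in 4 libraries were tested with the edgeR 4.0.16 quasi-likelihood test in R 4.3.3, with endogenous templates as library size. No dispersion trend was fitted below 100 features. DESeq2 1.42.0, TMM factors, other depths, clone definitions and filters, and leaving out each mouse were alternatives. Measures used Python 3.11.15, numpy 2.4.6, scipy 1.17.1 and pandas 2.3.3. Both procedures were tested on simulated data first.

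Named segments were those called, those of OT-1 and 7 listed V families. Named clones were the largest of each library and called CDR3s. The members and lists were chosen with earlier results of these data known. The J segment of 1 template, or 0.00213% of templates, had no name and was left out of the J and V-J counts. Intervals are 95% Wilson intervals. Rechallenge libraries were not used here.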

Additional observations from a re-analysis of the deposited data

Results flagged for a closer look

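Of 26 groups of values tested for a sample far from the others, 3 had one, and chance alone marks about 1 group in 20. Clonality at equal depth in control mouse 5 was 0.00769, against 0.00361 to 0.00391 in control mice 2 to 4. The share of templates without N insertions in full-dose mouse 5 was 20.7%, against 8.34% to 9.46% in full-dose mice 1 to 4. The 10 largest rearrangements not found in the own tumor held 9.45% of the remaining templates in full-dose mouse 5, the library with 482 endogenous templates, against 1.83% to 3.65% in full-dose mice 1 to 4.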

How the results depend on the processing

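Of 217 alternative values, 178 kept their direction and side of the threshold (counts of calls: stayed within 1.5 times), 23 kept their direction but lost the call, 13 counts of calls moved and 3 reversed. The 3 were mean CDR3 length, never called, at −0.0096 residues, which became 0.00115 without the V-J pair of OT-1, 0.0020 without control mouse 2 and 0.0194 without full-dose mouse 2, within a range of −0.0246 to 0.0194 without 1 mouse. With 1 mouse left out at a time, the full-dose minus control difference ranged from 0.0363 to 0.0553 for clonality, −110.4 to −73.9 for richness, −29.8 to −19.1 percentage points for singletons and 11.9 to 15.8 for the 10 largest, and the changes from day 0 differed by 0.0448 to 0.0612 and by 14.1 to 16.8. Calls ranged from 0 to 1 for J segments and for shared CDR3s, and stayed at 0 for V segments, V-J pairs and length classes. Mouse numbers did not pair the samples: V use deviations of same-numbered mice correlated at 0.301, 0.165, 0.232 and −0.0956, and only mouse 4 correlated best with its own number. With the replicate block over the 4 shared numbers the differences were 0.0553, −110.4, −29.8 and 15.8 (adjusted p = 0.188 each), the changes differed by 0.0548 and 15.5 and rearrangements per 100 templates by −14.6, each at the smallest p a sign-flip permutation test of 4 pairs can give, 0.125. DESeq2 called 2 V segments, both lower (TCRBV16-01 and TCRBV31-01). Counting distinct rearrangements called 1 V segment (TCRBV12-01, higher) and 1 J segment (TCRBJ02-03, lower). Shared CDR3 calls fell to 0 with TMM factors, DESeq2, the replicate block, the exact permutation test and a minimum of 3 libraries (344 CDR3s). Counting distinct rearrangements kept 1 call, but of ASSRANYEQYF, found only in the full-dose libraries, instead of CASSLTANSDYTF. The cause was not tested. Richness on all templates, with no equal depth, was 2142 against 4933 with overlapping groups. A depth of 1000 was possible only without full-dose mouse 5.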

Other observations

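Some CDR3s held many templates in more than 1 mouse, mostly from different rearrangements. Of 70 CDR3s of up to 14 residues among the 10 largest of the 9 libraries, 8 held at least 10 templates in the day 7 blood or tumor of another mouse. A 14-residue CDR3 with TCRBV19-01 held 9 blood and 139 tumor templates in full-dose mouse 5. The identical CDR3 held 338 blood and 3270 tumor templates in lower-dose mouse 2, and 0 rearrangements were in common. The blood templates used TCRBV19-01, and the tumor templates TCRBV19-01 and 3 other V segments. For such other mice, V segments were read only from rearrangements with at least 2 templates. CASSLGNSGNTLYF, with TCRBV12-01, held 36 blood and 17 tumor templates in full-dose mouse 4, and 11 and 18 in full-dose mouse 3. Among controls, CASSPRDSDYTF, mostly with TCRBV12-01, held 76 blood and 1026 tumor templates in mouse 5 and 238 tumor templates in mouse 1. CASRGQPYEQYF, with TCRBV29-01, held 10 blood and 228 tumor templates in mouse 3 and 128 tumor templates in mouse 5. Among libraries of other mice with at least 10 templates of the CDR3, only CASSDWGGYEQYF shared a rearrangement, 1 in number. Below that count, the TCRBV15-01 form of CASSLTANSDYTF in full-dose mouse 1 had 1 template in the tumor of full-dose mouse 2. These CDR3s were chosen after their values were seen, and no test was made.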
